A study of Mus musculus with 4 samples.

Results

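Among 5420 sorted colonic monocytes and macrophages, 100 cells carried Cd209a together with high MHC class II and low C1q transcripts. They were selected on counts of unique molecular identifiers (UMIs, each standing for 1 captured transcript). A cell was taken if it held no Ly6c2 UMI, at most 1 AA467197 UMI, at least 1 Cd209a UMI, at least 200 UMIs of H2-Aa, H2-Ab1, H2-Eb1 and Cd74 per 10000 and fewer than 120 UMIs of C1qa, C1qb and C1qc per 10000. These genes chose the cells and are therefore described without a test. The 100 cells, called Cd209a-positive cells here, came as 14 and 17 from the chow mice, replicates 9 and 11, and as 33 and 36 from the HFD mice, replicates 1 and 3. Another 651 cells met every condition but held no Cd209a UMI and are called Cd209a-zero cells. A further 574 cells differed by at least 1 Ly6c2 UMI, with any Cd209a, and are called Ly6c2-positive MHC II-high cells. The 2510 C1q-high cells differed by 120 or more C1q UMIs per 10000, again with any Cd209a.

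CD209a is a C-type lectin that binds sugars on microbes and, in the mouse, marks monocyte-derived dendritic cells as well as a fraction of type 2 conventional dendritic cells. Conventional dendritic cells arise from a bone marrow progenitor that depends on the receptor Flt3, whereas colonic macrophages are replenished by Ly6C-high monocytes that lose Ly6C, gain MHC class II and later express C1q. The receptor Csf1r marks the monocyte and macrophage lineage, and Zbtb46 marks conventional dendritic cells. MHC class II molecules and their chaperone Cd74 present peptides to CD4+ T cells and are shared by all of these cells.

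The study compared colonic lamina propria cells of male C57/Bl6N mice, 6-7 weeks old, fed normal chow (2 mice) or a coconut-based high-fat diet (HFD, 2 mice) for 1 week. The cells were sorted as live, CD45+, lineage-negative, CD11b+ and CD24-, and positive for Ly6C or CD64, and each mouse was 1 library. The sort leaves out CD24+ cells, which include dendritic cells, and the authors also removed cells that their reference annotation did not call monocytes or macrophages, so the data cannot give the abundance of dendritic cells in the colon. Both steps act on all 4 mice. The mice held 904 to 2002 cells each with a median of 3266 to 3926 UMIs per cell. The 100 cells held 835 to 9911 UMIs each, and their sums per mouse ranged from 52305 to 136752 UMIs. Cell barcodes that occurred in more than 1 mouse numbered 23, and none of the 100 cells carried one. Scrublet marked 38 cells as doublets, 0.701% of all, among them 2 Cd209a-positive cells, both from HFD replicate 3.

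Sequences upstream of 4 genes are shown because Cd209a defined the cells, Ifitm6 had the largest rise over Cd209a-zero cells among genes past the filter on low counts, and Gbp2 and Serpina3g rose with the diet and hold a letter pattern. Each window runs from 250 bases before to 50 bases after the start of the gene in RefSeq on GRCm38.p6 and is printed on the strand of the gene. Capitals mark 2 letter patterns searched on both strands, namely TTCNNNGAA, known as the gamma-activated site, and GAAA repeated with 2 bases between the copies (or the complement of this), which resembles interferon-stimulated response elements. The first occurred in 8.30% and the second in 3.44% of 32851 windows of this length. GAGGAAGT or its complement ACTTCCTC, a PU.1-like pattern, occurred in 3.20% of them and in none of the 4 windows. The windows lie at chr8:3748935-3749234 on the minus strand (Cd209a), chr7:141016843-141017142 on the minus strand (Ifitm6), chr3:142620413-142620712 on the plus strand (Gbp2) and chr12:104235897-104236196 on the plus strand (Serpina3g).
Cd209a: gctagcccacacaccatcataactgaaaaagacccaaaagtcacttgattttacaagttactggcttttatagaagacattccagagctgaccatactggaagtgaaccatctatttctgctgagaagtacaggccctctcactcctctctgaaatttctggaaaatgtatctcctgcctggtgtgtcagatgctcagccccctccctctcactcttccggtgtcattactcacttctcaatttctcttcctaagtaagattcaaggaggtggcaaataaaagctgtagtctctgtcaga
Ifitm6: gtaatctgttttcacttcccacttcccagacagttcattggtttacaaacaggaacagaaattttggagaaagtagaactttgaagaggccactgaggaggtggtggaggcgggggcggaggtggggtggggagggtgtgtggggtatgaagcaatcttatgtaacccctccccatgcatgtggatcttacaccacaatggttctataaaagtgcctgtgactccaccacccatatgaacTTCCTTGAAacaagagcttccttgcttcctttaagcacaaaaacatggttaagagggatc
Gbp2: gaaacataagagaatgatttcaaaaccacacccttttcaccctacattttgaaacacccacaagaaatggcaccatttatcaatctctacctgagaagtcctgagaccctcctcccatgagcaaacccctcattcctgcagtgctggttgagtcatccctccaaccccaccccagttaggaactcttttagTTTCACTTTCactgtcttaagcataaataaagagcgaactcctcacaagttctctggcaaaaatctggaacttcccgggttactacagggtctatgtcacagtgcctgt
Serpina3g: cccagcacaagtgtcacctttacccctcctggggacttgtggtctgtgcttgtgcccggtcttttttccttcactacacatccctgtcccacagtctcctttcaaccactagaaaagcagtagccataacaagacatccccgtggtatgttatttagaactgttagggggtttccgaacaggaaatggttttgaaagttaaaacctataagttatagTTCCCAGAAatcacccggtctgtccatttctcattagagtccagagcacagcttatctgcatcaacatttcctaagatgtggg
The Cd209a window held none of these letters, Ifitm6 held TTCCTTGAA from base 241, Gbp2 held TTTCACTTTC from base 192 and Serpina3g held TTCCCAGAA from base 218. Windows of 7 other genes were searched and are not printed, those of Ifitm1 and Cxcl9, which had larger log2 fold changes with the diet than Gbp2 and Serpina3g, and of Flt3, Itgb7, Mgl2, Kmo and Ms4a7. None of them held either of the marked patterns, and those of Itgb7 and Kmo held the PU.1-like letters. Genes shown were thus chosen in part for their matches, so the share of printed windows with a match says nothing of the genes. A match describes letters in the window and is no evidence of binding.

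The label of the cells was first set against its markers. Levels are given as CPM, the UMIs of a gene per 1000000 UMIs summed over the cells of a class in a mouse. Cd209a reached 1319 and 1581 in the chow mice and 1389 and 1555 CPM in the HFD mice. In C1q-high cells, which were not chosen on Cd209a, it lay between 11 and 17.3. The rule asked for a Cd209a UMI, so the higher level in Cd209a-positive cells follows from the choice of cells. Of the 751 cells that met the other conditions, with or without Cd209a, 13.3% held at least 1 Cd209a UMI. The share was 4.78% of the 2510 C1q-high cells. H2-Ab1, the beta chain of the MHC class II molecule I-A, stood at 21711 to 24534 CPM in Cd209a-positive cells against 22796 to 24875 in Cd209a-zero cells. Cd74 stood at 20515 to 23219 against 18608 to 22688, so that the ranges of both genes overlapped. Ccr2, the receptor that brings monocytes into tissue, was the single listed marker that the rule did not use. It reached 535 and 965 in chow and 380.2 and 467 in HFD, against 188 to 366 in C1q-high cells, with no overlap between the classes. The difference did not pass the test (log2 fold change 0.69 ± 0.23 SE, adjusted p = 0.0419 with edgeR), and Ccr2 was at 622 to 732 in Cd209a-zero cells.

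Of the 100 cells, 32 held a single Cd209a UMI, 10 held 2 and 58 held 3 or more, with up to 27. A single UMI was about as frequent in every class (plot of cells with 1 and with 3 or more Cd209a UMIs). It was found in 4.26% of the 751 cells of the gate (95% exact binomial interval 2.93 to 5.96), in 4.36% of Ly6c2-positive MHC II-high cells, in 4.68% of 770 Ly6c2-positive MHC II-low monocytes and in 3.75% (3.04 to 4.56) of C1q-high cells. Median depth was 2679 UMIs in the gate and 4139.5 in C1q-high cells. As deposited, the share with a single UMI in the gate was thus within the interval of C1q-high cells. After each cell was thinned to 2000 UMIs these 2 shares separated, at 6.17% (4.42 to 8.34) and 2.27% (1.70 to 2.96), and thinning also turns cells with several UMIs into cells with 1. How many of the 32 cells hold a stray UMI was not tested. Cells with 3 or more UMIs made up 7.72% (5.92 to 9.87) of the gate, 4.88% (3.27 to 6.97) of Ly6c2-positive MHC II-high cells, 1.17% of Ly6c2-positive MHC II-low monocytes and 0.478% (0.247 to 0.834) of C1q-high cells. The intervals cover counting error alone.

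**Figure D1:**
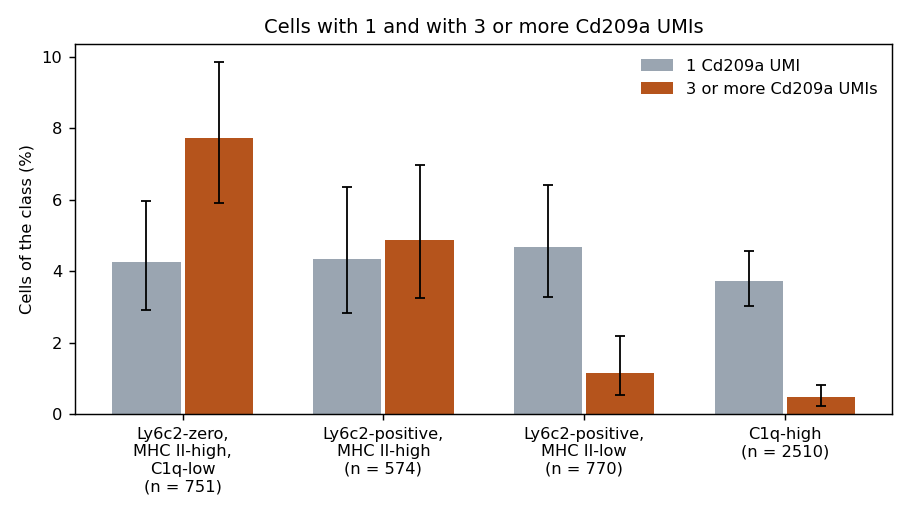
Share of cells (%) with 1 (grey) or with 3 or more (brown) Cd209a UMIs in 4 classes, pooled over 4 mice, with exact 95% binomial intervals as bars. The grey bars lie between 3.75 and 4.68%, while the brown bars fall from 7.72% in the Ly6c2-zero, MHC II-high, C1q-low gate to 0.478% in C1q-high cells.

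Several genes that the rule did not use differed with the number of Cd209a UMIs within the 100 cells, and others did not. C1q, which the rule used, differed too, with a median of 58.1 UMIs per 10000 in cells with 1 Cd209a UMI and 4.91 in cells with 3 or more, and its part in these shares was not tested. Cells with 1 UMI had medians of 2691.5 UMIs and those with 3 or more of 3606.5, so shares were taken after thinning to 2000 UMIs, which kept 20 and 50 cells and left out 12 and 8. Ifitm6, a gene of the interferon-induced transmembrane protein family, was found in 60.0% of cells with 3 or more Cd209a UMIs (95% interval 45.2 to 73.6), in 15.0% of cells with 1 (3.21 to 37.9) and in 7.30% of Cd209a-zero cells. Itgb7, the beta 7 integrin chain that homes leukocytes to the gut, was found in 56.0, 10.0 and 7.56%. Klrd1, the CD94 receptor chain, was found in 34, 5 and 4.03%, and Flt3 in 20, 5 and 1.26%. The opposite order held for macrophage genes, with Ms4a7, a tetraspan-like protein of mature macrophages, in 8, 40.0 and 46.1%. Other genes did not follow the number of Cd209a UMIs. Dpp4, a peptidase of the cell surface, was found in 20, 20 and 3.78% and Kmo, an enzyme of tryptophan breakdown, in 12, 10 and 3.27%, so that cells with 1 UMI lay with those with 3 or more. The lectin Mgl2 was found in 28, 35 and 17.4% and Ccr2 in 64, 55 and 56.9%. Unthinned, Ifitm6 ran the same way, being found in 67.2% of the cells with 3 or more, 9.38% of those with 1 and 9.83% of Cd209a-zero cells. Among the cells with 3 or more, the mice differed, with Ifitm6 in 5 of 8 and 1 of 8 cells in chow and in 18 of 20 and 15 of 22 in HFD. Cells are not replicates, so these shares have no test.

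**Figure D2:**
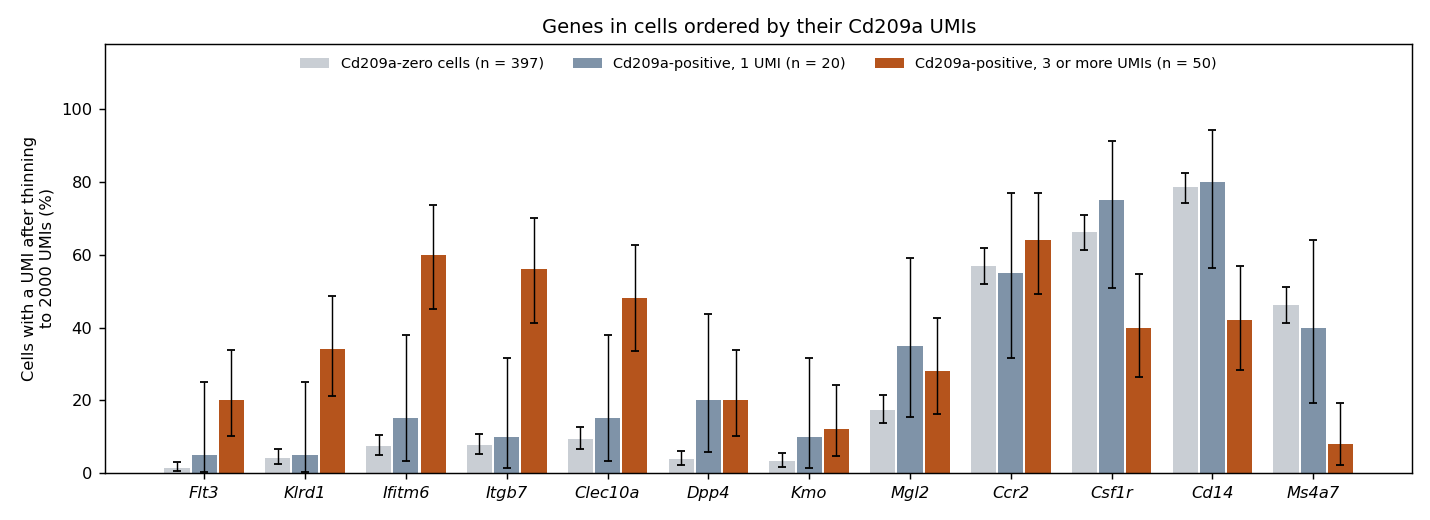
Share of cells (%) with a UMI of 12 genes after thinning each cell to 2000 UMIs, for Cd209a-zero cells and for Cd209a-positive cells with 1 and with 3 or more Cd209a UMIs, with exact 95% binomial intervals as bars. Cells with 3 or more UMIs are higher than both other groups for Flt3, Klrd1, Ifitm6, Itgb7 and Clec10a. They are lower for Csf1r, Cd14 and Ms4a7. By unthinned share, Csf1r is lower in the HFD mice only. Cd14 is then not lower in chow replicate 11, in 8 of 8 cells with 3 or more and 5 of 6 with 1. For Dpp4, Kmo and Mgl2 cells with 1 UMI lie with those with 3 or more.

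For Ms4a7 the order was the same in each mouse. In CPM, it was at 171 in cells with 3 or more Cd209a UMIs and 1659.7 in cells with 1 in chow replicate 9, at 247 and 790.4 in chow replicate 11, at 0 and 21.4 in HFD replicate 1 and at 40.1 and 187 in HFD replicate 3. The order in HFD replicate 1 rests on 1 UMI in 1 of 12 cells. In chow replicate 9, 20 of the 32 Ms4a7 UMIs lay in 1 cell. Flt3 UMIs were found in 2 of 8 and 1 of 8 cells with 3 or more in the chow mice and in 7 of 20 and 8 of 22 in the HFD mice, and in 1 of the 32 cells with a single Cd209a UMI. Csf1r divided by diet. By share of cells, not thinned, it was found in 7 of 8 cells with 3 or more and 3 of 5 with 1 in chow replicate 9 and in 7 of 8 and 3 of 6 in chow replicate 11, but in 5 of 20 and 9 of 12 in HFD replicate 1 and in 9 of 22 and 6 of 9 in HFD replicate 3. The lower pooled share in cells with 3 or more thus came from the HFD mice. In CPM, it was higher in cells with 3 or more in chow replicate 11 alone, at 616 against 339. Of all 100 cells, 21 held Flt3, 36 held Klrd1 and 65 held at least 1 UMI of Flt3, Klrd1, Ifitm6 or Itgb7, among them 50 of the 58 cells with 3 or more Cd209a UMIs. These counts are not corrected for depth. Ifitm6 and Itgb7 were also common in the Ly6c2-positive MHC II-low monocytes of the series, in 67.1 and 36.3% of 647 thinned cells, whereas Klrd1 was found in 1.55% and Flt3 in 2.01% of them.

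Of all 384 cells with Cd209a, 61 missed the rule by Ly6c2 alone, 29 of them by a single UMI, and 120 missed it by C1q alone. Shares in this paragraph are not thinned. Among the 28 Ly6c2-positive MHC II-high cells with 3 or more Cd209a UMIs, Flt3 was found in 10.7%, Ifitm6 in 75.0%, Itgb7 in 71.4%, Klrd1 in 32.1% and Ms4a7 in 17.9%. Unthinned shares in Cd209a-positive cells with 3 or more UMIs were 31.0, 67.2, 62.1, 48.3 and 19.0% in the same order of genes. Among the 513 Ly6c2-positive MHC II-high cells without Cd209a the shares were 1.95, 20.3, 29.4, 5.65 and 26.5%. Among 9 Ly6c2-positive MHC II-low monocytes with 3 or more UMIs, Flt3 was found in 33.3% and Klrd1 in none. In the 721 without Cd209a the shares were 2.91 and 2.36%. Among the 12 C1q-high cells with 3 or more UMIs, Flt3 was found in none, Klrd1 in 25%, Ifitm6 in 16.7% and Ms4a7 in all 12. These 12 all came from chow mice, 4 from replicate 9 and 8 from replicate 11. Of the 58 Cd209a-positive cells with 3 or more, 42 came from HFD mice. Class and diet thus go together in these shares and cannot be told apart. Among the 2390 C1q-high cells without Cd209a, Klrd1 was found in 2.34%, Ifitm6 in 3.31% and Ms4a7 in 95.3%. Cells at the other limits were few, with 8 members between 100 and 120 C1q UMIs per 10000 and 9 otherwise eligible cells between 120 and 140, and with 5 members between 200 and 250 MHC class II UMIs per 10000 and 3 eligible cells between 150 and 200.

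Cd209a-positive cells were next compared with Cd209a-zero cells of the same mice, which met the same conditions apart from Cd209a. For each mouse the counts were summed, and the sums were compared by quasi-likelihood in edgeR with a false discovery rate of 1%. Of 4433 genes tested outside the rule, 127 (2.86%) were called, 45 of them higher (1.02%) and 82 lower (1.85%). In thinned cells 22 were called higher and 75 lower. The higher genes were led by Ifitm6, Klrd1, Itgb7 and the lectin Clec10a, and the lower ones included macrophage genes such as Apoe, Ms4a7 and Csf1r. The count fell to 73 without chow replicate 9, to 76 without HFD replicate 3, to 74 with DESeq2 and to 0 without the term for the mouse, where 483 genes had an unadjusted p under 0.05. C1q was not equal in the 2 classes, with a median of 8.50 UMIs per 10000 in Cd209a-positive and 60.0 in Cd209a-zero cells. With both classes held under 60 and the minimum lowered from 10 to 5 cells per mouse, an alternative chosen after the data were seen, 111 genes were called, 87 of them also in the comparison above.

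Ifitm6 stood at 439.7 and 83.2 CPM in the Cd209a-positive cells of the chow mice and at 680.1 and 729 in those of the HFD mice, against 50.4, 23.2, 55.1 and 57.4 in Cd209a-zero cells. All 4 mice were higher, chow replicate 11 by the least, and the log2 fold change was 3.26 ± 0.28 SE (adjusted p = 2.22e-11, edgeR). Klrd1 stood at 57.4, 83.2, 409.5 and 303 against 8.90, 18.6, 106 and 26.5 in the same order of mice, and again every mouse was higher (log2 fold change 2.50 ± 0.36, adjusted p = 4.12e-06). Itgb7 stood at 210.3, 233, 395 and 467 against 38.5, 32.5, 106 and 79.4 (log2 fold change 2.30 ± 0.27, adjusted p = 1e-07), without overlap between the classes. The other genes of the 10 largest rises were Clec10a, Trappc5, Cdkn2d, an inhibitor of cell cycle kinases, Ccnd2, a D-type cyclin, Sgms1, a sphingomyelin synthase, Ltb4r1, the receptor for leukotriene B4, and St3gal4, a sialyltransferase, with log2 fold changes from 1.72 to 2.10.

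**Figure D3:**
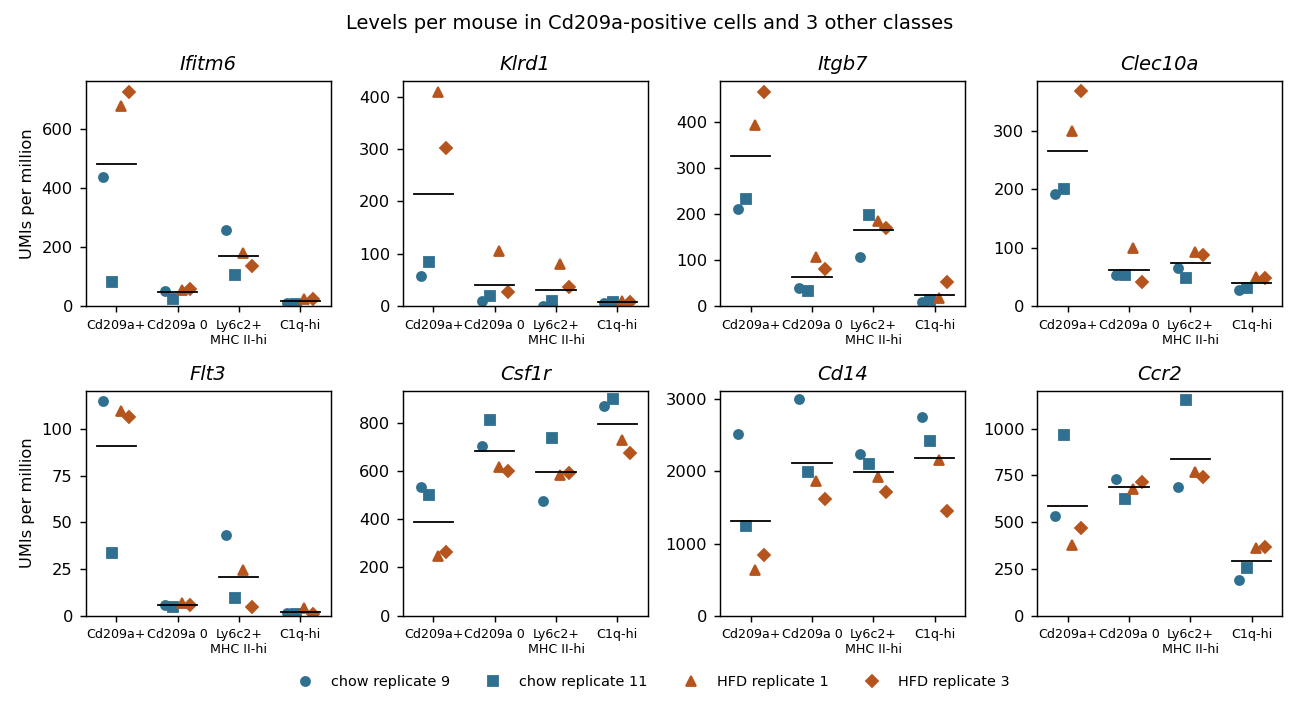
Level in CPM of 8 genes in Cd209a-positive cells (Cd209a+), Cd209a-zero cells, Ly6c2-positive MHC II-high cells and C1q-high cells, with 1 point per mouse and the mean of 4 mice as a line. Every Cd209a-positive point lies above the Cd209a-zero point of its mouse for Ifitm6, Klrd1, Itgb7, Clec10a and Flt3 and below it for Csf1r and Cd14.

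Of the 18 core conventional dendritic cell genes, 6 passed the filter on low counts against Cd209a-zero cells and none was called, with 4 of 6 positive and a median log2 fold change of 0.18 against -0.04 over all genes tested. Flt3, the growth factor receptor of the dendritic lineage, was among those removed, since the filter asks for a UMI in 5% of the cells of both classes together. It was at 115 and 33.3 CPM in chow and 109.7 and 106 in HFD, against 4.64 to 6.89 in Cd209a-zero cells, so that no value overlapped. Without the filter it was called (log2 fold change 3.52 ± 0.64 SE, adjusted p = 5.77e-06), as 1 of the 18 genes of this list, of which 11 were positive with a median of 1.07 against -0.39 over all genes. Kmo and Dpp4 had log2 fold changes of 1.96 ± 0.57 and 1.95 ± 0.58 and did not pass (adjusted p of 0.0342 and 0.0423). They were found in 4.15 and 3.84% of Cd209a-zero and in 20 and 19% of Cd209a-positive cells. Both thus entered the test only through the Cd209a-positive cells. Zbtb46 was found in 4 of the 100 cells and in 0.461% of Cd209a-zero cells, and its difference without the filter had an adjusted p of 0.83.

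The type 2 dendritic cell list, with 5 of 8 genes tested, gave 2 higher calls, the lectins Clec10a and Mgl2. They were the only positive genes of the 5, with a median of -0.07 against -0.04 over all genes tested. Clec10a stood at 191, 199.7, 299.8 and 368 CPM against 53.4, 53.4, 98.8 and 41.2 (log2 fold change 2.10 ± 0.30, adjusted p = 5.86e-06). Mgl2, its close relative, had a log2 fold change of 1.25 ± 0.25 (adjusted p = 0.000712) and was not higher in HFD replicate 1, where it stood at 36.6 against 64.3. The other members gave no call, among them Sirpa, an inhibitory receptor, and Itgax, the CD11c integrin chain. None of the 4 tested type 1 dendritic cell genes, neither of the 2 tested mature dendritic cell genes and not the 1 tested plasmacytoid gene was called. Xcr1 and Clec9a, which define type 1 dendritic cells, had UMIs in 3 and 2 of the 100 cells, and Siglech of plasmacytoid cells was listed at 0.

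Some macrophage genes were lower. The filter on low counts was applied to both classes together, and 651 of the 751 cells were Cd209a-zero, so genes passed mainly through that class. Of 9 core macrophage genes tested, 3 were called lower and none was positive, with a median of -0.93. Csf1r, the receptor for the macrophage growth factor CSF1, stood at 535, 499, 249 and 262 CPM against 703, 813, 618 and 599 in Cd209a-zero cells, lower in every mouse, and had a log2 fold change of -0.99 ± 0.19 (adjusted p = 0.000471) and Cd14, the co-receptor for lipopolysaccharide, one of -0.93 ± 0.16 (adjusted p = 6.66e-05). Fcgr1, which encodes CD64 and with Ly6C was a sorting marker, was at 115, 66.6, 146 and 147 against 136, 156, 165 and 171 and did not pass (log2 fold change -0.43 ± 0.29, adjusted p = 0.574). Of 11 resident colonic macrophage genes tested, 6 were called lower, namely Apoe, Ms4a7, Cd63, Pf4, Cd81 and the cytokine Il10, 1 was positive, and the median was -1.55. Apoe, the lipid carrier, stood at 15619.9 and 10736 CPM in chow and 2289 and 1719 in HFD against 34069.5, 34968, 8596 and 6468, and its log2 fold change was -1.73 ± 0.12 (adjusted p = 2.01e-14).

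Other lists divided. Of 10 monocyte genes tested, 1 was higher (Ifitm6) and 3 were lower, Hp, Thbs1 and Chil3. Of 10 antigen presentation genes outside the rule, H2-DMb2, a chain of the peptide exchanger H2-DM, was higher (log2 fold change 1.31 ± 0.26, adjusted p = 0.000824), though not in chow replicate 9, at 76.5 against 77.1 CPM, and Ctss, the protease that trims the class II chaperone, was lower (-0.61 ± 0.12, adjusted p = 0.000937). Of 13 C-type lectin genes tested, Clec10a and Mgl2 were higher and Clec4e and Clec7a, receptors for microbial glycolipids and beta-glucans, were lower. Il1b, Il1rn and Il10 were called lower among 6 tested cytokine genes, and none of 11 interferon-gamma-induced or 12 type I interferon-induced genes was called. Of 9 stress genes, which rise on handling of tissue as well as on activation, Ier2 and Hspa1a were higher (log2 fold changes 0.71 ± 0.16 and 0.99 ± 0.18, adjusted p of 0.00372 and 0.000218), 6 were positive and the median was 0.49. Their part in the results was not tested. Cd209b and Cd209d, neighbours of Cd209a in the same gene family, were also found in these cells, at 8.19 to 65.8 and 16.6 to 146 CPM, but reads of such similar genes may be split between copies and their levels are uncertain. Both were removed by the filter, and without it they had log2 fold changes of 5.93 ± 1.47 and 5.11 ± 0.73 (adjusted p of 0.00385 and 1.11e-09). Few cells stood behind these values. Cd209b was found in 1 cell of each mouse, with 9 UMIs in that of HFD replicate 1. Of 20 Cd209d UMIs in HFD replicate 1, 14 lay in 1 cell. The cells were chosen on Cd209a, and the part of its reads in these values was not tested.

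Markers of cells that the sort should have removed were also summed. The 5 measured B and plasma cell genes reached 593 and 732 CPM in the Cd209a-positive cells of the chow mice and 475 and 336 in those of the HFD mice, with Cd79a at 0. In Cd209a-zero cells they reached 5198 and 4940 in chow and 292 and 246 in HFD, so that Cd209a-positive cells were lower in both chow mice and higher in both HFD mice. Jchain, the joining chain of secreted antibodies, was called lower (log2 fold change -2.72 ± 0.32, adjusted p = 7.04e-08), at 134 and 283 in chow against 1515 and 2722, but with the classes formed on thinned cells its log2 fold change was 0.02. The 4 T cell genes summed to 0 to 16.6 CPM in 3 mice and to 98.2 in HFD replicate 3, against 14.7 in the Cd209a-zero cells of that mouse. The 5 innate lymphoid genes summed to 0 in 3 mice and to 164 in HFD replicate 3, against 17.7 in its Cd209a-zero cells. Of 19 Gzmb UMIs in that mouse 17 lay in 1 cell, and Nkg7, Ncr1 and Klrb1c were at 0. Epithelial, neutrophil, fibroblast and granulocyte genes summed to at most 38.2 CPM each. The part of such cells in the results was not tested.

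Against Ly6c2-positive MHC II-high cells, the question was how Cd209a-positive cells differ from cells at the monocyte end with the same MHC class II and C1q limits. Chow replicate 9 held 8 of these cells, under the minimum of 10, and was left out. The 5 B and plasma cell genes summed to 32771 CPM in the Ly6c2-positive MHC II-high cells of chow replicate 11, the chow sum that remained, against 334 and 315 in those of the HFD mice and 732 in the Cd209a-positive cells of chow replicate 11. The part of this in the comparison was not tested. Of 4837 genes outside the rule, 71 (1.47%) were called, 20 higher (0.413%) and 51 lower (1.05%). The count was 33 without HFD replicate 1, 22 without HFD replicate 3, 175 without chow replicate 11 and 31 with DESeq2. Flt3 was the largest rise, at 33.3, 109.7 and 106 CPM in chow replicate 11, HFD replicate 1 and HFD replicate 3 against 9.46, 24.7 and 4.74 (log2 fold change 3.01 ± 0.66, adjusted p = 0.00544). Over all mice it was found in 2.96% of Ly6c2-positive MHC II-high and 21% of Cd209a-positive cells. It thus passed the filter of 5% only through the class where it was high, and its rank and test rest on that. Klrd1, Kmo, Ccnd1, Mgl2, Ccnd2, H2-DMb2, Clec10a, Pkib and Cdkn2d made up the other 9 of the 10 largest rises with 1 direction in every mouse, from 1.63 to 2.67. All 9 stress genes were positive, and Atf3, Jun and Hspa1a were called higher (median 0.50).

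Of 11 monocyte genes tested in this comparison, 7 were called lower and 1 higher, with a median of -1.23. The 2 classes were cut on Ly6c2, itself a monocyte gene, so the count describes how much else goes with that cut. Chil3, a chitinase-like protein of Ly6C-high monocytes, stood at 0, 219 and 270.2 CPM against 1173, 1669 and 2147 (log2 fold change -3.33 ± 0.27, adjusted p = 7.62e-11). Plac8, another gene of Ly6C-high monocytes, stood at 599, 4344 and 4159 against 3899, 7743 and 7798, and the chow value was the lowest in both classes (log2 fold change -1.39 ± 0.21, adjusted p = 3.59e-05). Lyz2, F10, Hp, Thbs1 and Ms4a4c were the other 5. Ifitm6, although listed with the monocyte genes, was the exception at 1.86 ± 0.28 (adjusted p = 3.94e-05), lower in chow replicate 11 (83.2 against 104) and higher in both HFD mice. Of the core macrophage genes, Csf1r and Cd14 were lower. Jchain fell by 4 on the log2 scale and the lysozyme gene Lyz1 by 4.02, and both changed sign, to 0.31 and 0.24, when the classes were formed on thinned cells.

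Against C1q-high cells, the resident end of the series, 298 of 5081 genes outside the rule were called (5.86%), 91 higher (1.79%) and 207 lower (4.07%). The 2 classes were cut on C1q, so the count describes how much else goes with that cut. The count was 198 without HFD replicate 3. Ifitm6 had a log2 fold change of 4.53 ± 0.31 (adjusted p = 1.46e-21), S100a4, a calcium-binding protein of motile cells, one of 3.99 ± 0.25 (adjusted p = 1.38e-23) and Itgb7 one of 3.72 ± 0.32 (adjusted p = 8.85e-17). S100a4 stood at 516 to 1133 CPM against 25.3 to 96.4. Mcemp1, S100a6, Ltb4r1, Anxa2, Plac8, Clec10a and Tmsb10 completed the 10 largest rises. As above, the filter was applied to both classes together, and the cells were 2510 C1q-high and 100 Cd209a-positive ones, so genes passed mainly through the C1q-high cells. Ifitm6 was an exception, found in 3.51% of C1q-high and 47% of Cd209a-positive cells. It passed only through the class where it was high, and its rank and test rest on that. Cd4, found in 1% of Cd209a-positive and 23.6% of C1q-high cells, was tested, whereas Flt3, found in 21% and 0.478%, was not. With this limit on the lists, 11 of 12 resident macrophage genes tested and 7 of 11 core macrophage genes were called lower. Dendritic cell lists divided, with Traf1 higher and Adam19 lower of 4 core genes, Naaa higher and Cadm1 lower of 4 type 1 genes, and Clec10a alone called of 5 type 2 genes, where Mgl2 had a log2 fold change of 0.01. Of the 9 stress genes Fos was lower. Gdpd1, Kcnj10, Mmp2 and Gm37795 had no UMI in Cd209a-positive cells. Taking 3 UMIs over all 100 cells as the limit, pooled levels were at least 5.83-fold, 3.94-fold, 4.94-fold and 5.11-fold lower than in C1q-high cells. These folds pool the mice, and the pools differ in diet. The chow mice gave 614 and 1513 of the C1q-high cells but 14 and 17 of the Cd209a-positive ones. The part of diet in these folds was not tested. The chemokine Ccl8, the sialyltransferase St3gal6, the class I-like H2-M2, Lilra5, the lipase Aoah and Cd4 followed, with log2 fold changes from -5.19 to -4.62.

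**Figure D4:**
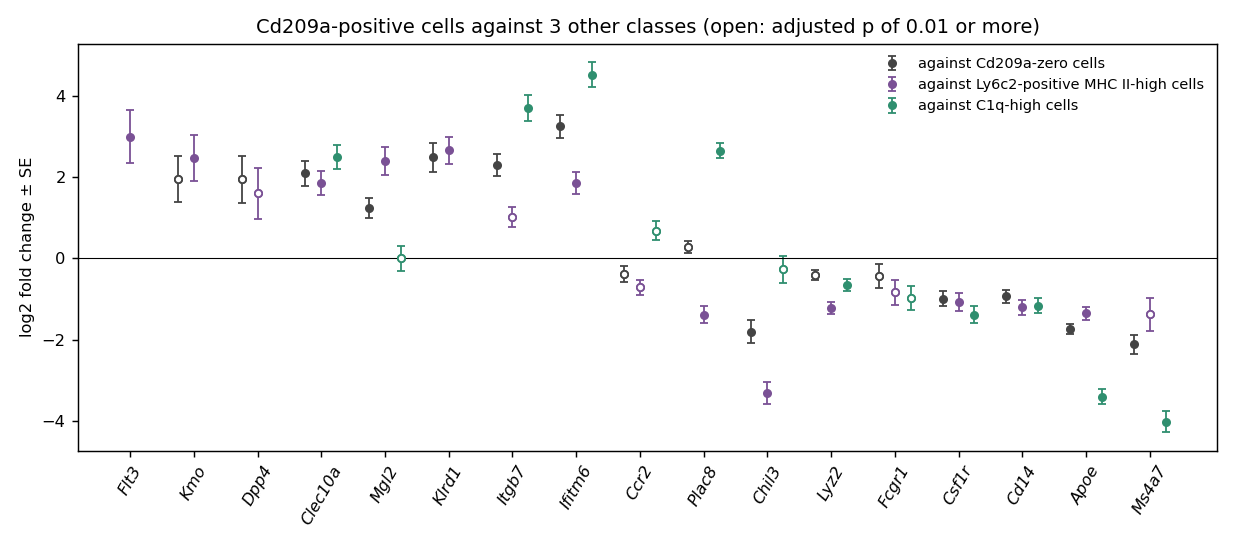
Log2 fold change ± SE of 17 genes in Cd209a-positive cells against 3 other classes, from dendritic cell genes on the left through monocyte genes to macrophage genes on the right, with open points for adjusted p of 0.01 or more. Clec10a and Klrd1 are above 0 where tested, Chil3 is lowest against Ly6c2-positive MHC II-high cells (-3.33), and Csf1r, Cd14 and Apoe are below 0 in all 3 comparisons.

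The 3 comparisons share Cd209a-positive cells and are given side by side. The one against Ly6c2-positive MHC II-high cells lacks those of chow replicate 9. Clec10a differed by 2.10, 1.86 and 2.50 on the log2 scale from Cd209a-zero, Ly6c2-positive MHC II-high and C1q-high cells. Csf1r differed by -0.99, -1.07 and -1.39. Lyz2, a gene of monocytes and macrophages alike, differed by -0.41, -1.23 and -0.65, and the first of these did not pass the test (adjusted p = 0.0422).

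The diets were compared first by the number of Cd209a-positive cells. They made up 1.55 and 0.849% of all cells in the chow mice and 3.42 and 2.33% in the HFD mice, without overlap (means 1.20 ± 0.495 and 2.87 ± 0.771, SD, n = 2 each, exact two-sided permutation test over mice, p = 0.33, the smallest that 2 against 2 mice can give). After thinning to 2000 UMIs the difference of 1.67 percentage points became 1.85. The cells without Ly6c2, with high MHC class II and low C1q were themselves 13.5 and 9.04% of chow cells and 17.9 and 17.8% of HFD cells, a difference of 6.57 percentage points. In thinned cells they were 10.8 and 6.74% and 21.6 and 21.8%, a difference of 12.9 points. Within them as deposited, Cd209a-positive cells were 11.5 and 9.39% in chow and 19.1 and 13.1% in HFD (exact permutation p = 0.33). That order was lost in thinned cells, with 14 and 15.3% in chow and 17.9 and 10.9% in HFD. It was also lost with C1q held under 60, with 18.8 and 12.1% in chow and 25 and 18% in HFD (exact permutation p = 0.67). Cells with 3 or more Cd209a UMIs made up 6.56 and 4.42% of these cells in chow and 11.6 and 8% in HFD as deposited, and 6.98, 5.41, 6.55 and 5.99% after thinning, counts added after the data were seen.

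Within Cd209a-positive cells, 65 of 5294 genes outside the rule (1.23%) were called between HFD and chow, 24 higher (0.453%) and 41 lower (0.774%). Among them, 5 interferon-induced genes and the monocyte genes Plac8 and Chil3 rose, and 4 resident macrophage genes and the monocyte gene Lyz2 fell. Of the interferon-induced genes, Cxcl9 and Iigp1 had no chow UMI and could only be higher. The same held for Ifitm1, Ly6i, Serpina3g, Ccl5 and Ccr7 among the other genes called higher. The chow sums hold 14 and 17 cells. Without HFD replicate 1 or without HFD replicate 3 no gene was called by edgeR (190 and 218 genes with an unadjusted p under 0.05), whereas 72 were called without chow replicate 11 and 83 without chow replicate 9. DESeq2 called 20 genes, and 38 were called without the 2 cells marked as doublets. The median log2 fold change over all genes was 0.13. C1q also differed between the diets inside the rule, with median levels of 26.7 and 67.4 UMIs per 10000 in the chow and 4.28 and 6.56 in the HFD cells, and 16 genes were called with C1q held under 60 and 37 in cells with 3 or more Cd209a UMIs, both with the minimum lowered from 10 to 5 cells per mouse. Whether the same cells changed or other cells entered the rule cannot be told apart.

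Of 19 measured interferon-gamma-induced genes, 14 passed the filter on low counts and 3 were called, Gbp2, Cxcl9 and Iigp1. The filter counts the cells of both diets together, and 69 of the 100 are HFD cells, so 3 of the 14 genes passed without any chow UMI and could only be higher with HFD. Cxcl9 and Iigp1 among the called genes were of this kind, Gbp2 was not. Gbp2, a guanylate-binding GTPase of cell-autonomous defence, stood at 57.4 and 16.6 CPM in chow and 658 and 524 in HFD (log2 fold change 3.94 ± 0.57, adjusted p = 1.75e-09), with UMIs in 2 of 31 chow cells and 45 of 69 HFD cells. Cxcl9, which recruits CXCR3+ T cells, was at 0 in both chow mice and at 921 and 491 in HFD, at least 26.9-fold higher when 3 UMIs over the chow group are taken as the limit. Of 26 measured type I interferon-induced genes, 15 passed the filter, 3 of them without a chow UMI, and Irf7 and Zbp1 were called. Zbp1, a sensor of left-handed nucleic acids, stood at 19.1 and 16.6 against 249 and 295 (log2 fold change 3.77 ± 0.78, adjusted p = 0.000189).

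Ifitm1, the largest rise, was at 0 in both chow mice and at 2976 and 360.2 CPM in HFD replicates 1 and 3, at least 65.3-fold higher by the same limit. The HFD mice differed widely, and 115 of 407 UMIs in HFD replicate 1 came from 1 cell. Ly6i, Serpina3g, Ccl5 and Ccr7 were likewise at 0 in chow and at least 9.41-fold, 9.41-fold, 8.10-fold and 5.93-fold higher. Ifitm1 and these genes passed the filter through HFD cells alone and could only be higher. Ccr7, the receptor that guides dendritic cells to lymph nodes, was found in 5 and 3 cells of the HFD mice, with 21 of the 29 UMIs of HFD replicate 1 in 1 cell. Ccl17, a chemokine of mature dendritic cells, was at 19.1, 0, 29.2 and 548, nearly all of it in HFD replicate 3. Plac8 rose from 439.7 and 599 to 4344 and 4159 (log2 fold change 2.96 ± 0.29, adjusted p = 2.28e-20) and was found in 13 of 31 chow and 66 of 69 HFD cells. Chil3 rose as well (4.53 ± 0.91, adjusted p = 0.00011), with 1 chow UMI in 1 cell of replicate 9. Lyz2, of the same list, fell (-1.25 ± 0.23, adjusted p = 1.54e-05), and of the 10 monocyte genes tested 2 had no chow UMI. Klrd1 was higher by 2.25 ± 0.55 (adjusted p = 0.00379).

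**Figure D5:**
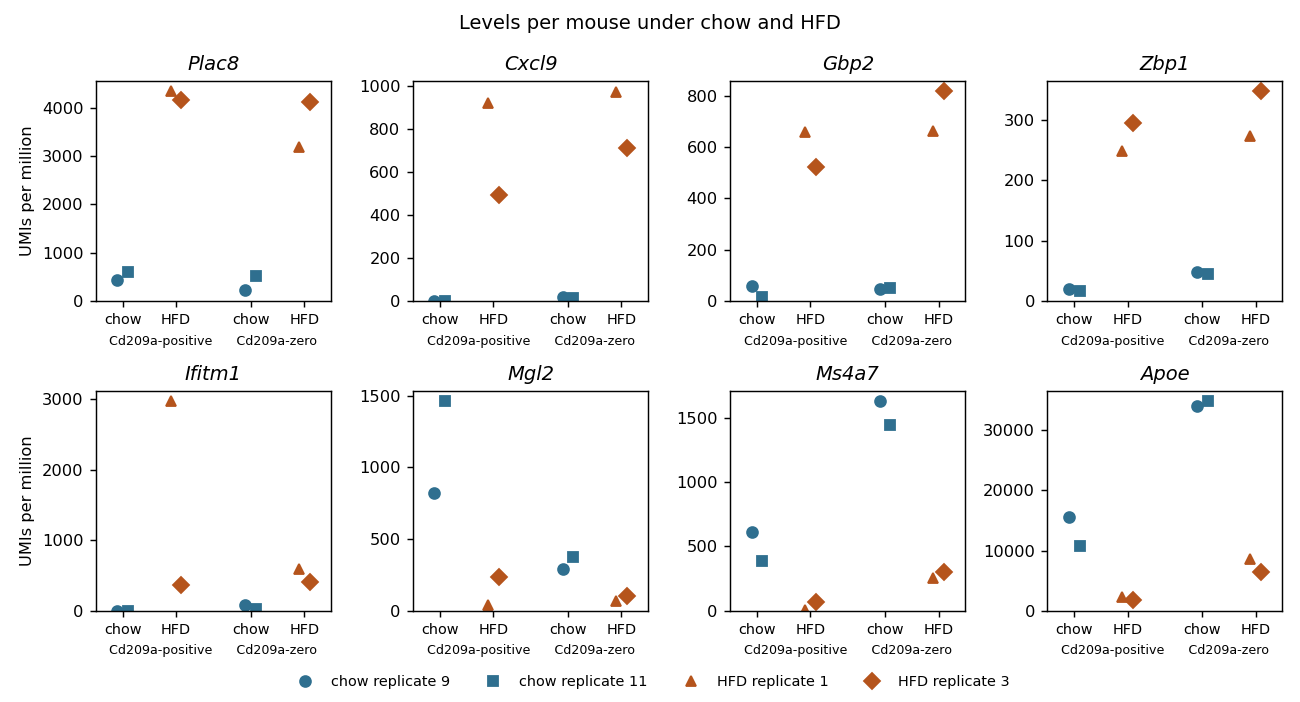
Level in CPM of 8 genes in Cd209a-positive and Cd209a-zero cells under chow (blue) and HFD (brown), with 1 point per mouse. Plac8, Cxcl9, Gbp2, Zbp1 and Ifitm1 are higher and Mgl2, Ms4a7 and Apoe lower in both HFD mice, in both classes of cells.

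Among genes that fell with HFD, 4 of the 9 resident macrophage genes past the filter, of 16 measured, were called. Apoe fell from 15619.9 and 10736 to 2289 and 1719 CPM (log2 fold change -2.76 ± 0.25, adjusted p = 9.22e-25). Ms4a7 fell from 612 and 383 to 7.31 and 65.5 (-3.82 ± 0.53, adjusted p = 4.22e-10), and Pf4 and Cd81 fell by 3.86 and 3.52 on the log2 scale. Of 8 core macrophage genes tested 2 were called lower, Cd14 among them (log2 fold change -1.40 ± 0.28, adjusted p = 0.000117). Mgl2 fell from 822 and 1465 to 36.6 and 237 (-3.16 ± 0.37, adjusted p = 4.75e-15), although Clec10a, its relative, was not called (0.70, adjusted p = 0.558). The 10 largest falls were Mmp12, a macrophage elastase, Retnla, a secreted protein of alternatively activated macrophages, Ecm1, Pf4, Cxcl1, Ms4a7, Cd81, the transcriptional inhibitor Id3, the complement receptor C3ar1 and Gdf15. In chow replicate 11, 35 of 38 Retnla UMIs and 58 of 71 Cxcl1 UMIs came from 1 cell each. In chow replicate 9 the same held for 16 of 17 Gdf15, 11 of 12 Mmp12 and 11 of 13 Retnla UMIs.

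Of 13 core dendritic cell genes tested between the diets none was called, and Flt3 had a log2 fold change of 0.53 (adjusted p = 0.881). Ifitm6 was at 1.42 (adjusted p = 0.0133) and did not pass, and none of 10 antigen presentation genes outside the rule passed. Of 9 stress genes, Egr1 and Jun were lower with HFD, 1 was positive and the median was -0.55. In cells with 3 or more Cd209a UMIs, Csf1r was found in 7 of 8 and 7 of 8 cells of the chow mice and in 5 of 20 and 9 of 22 of the HFD mice.

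The difference of the diet effect between Cd209a-positive and Cd209a-zero cells was tested as an interaction. Of 4433 genes outside the rule, 12 (0.271%) were called, 10 positive (0.226%) and 2 negative (0.0451%). The count was 4 without HFD replicate 1, 3 without HFD replicate 3 and 1 with DESeq2. None of the 11 interferon-gamma-induced and 12 type I interferon-induced genes tested was among the 12. Ifitm1, which the paper names with interferon signaling and which is on neither list, was among them (8.16 ± 1.74, adjusted p = 0.00189 with edgeR). Its chow sums in Cd209a-positive cells were at 0. For Cxcl9 in Cd209a-zero cells, for instance, the values were 17.8 and 11.6 in chow and 974 and 712 in HFD. All 9 stress genes were positive, with a median of 0.71, and Atf3 and Jun were called. Within Cd209a-positive cells the log2 fold changes of Atf3 and Jun between HFD and chow were -0.92 and -1.25. For these 2 genes the positive difference thus stands for a smaller fall than in Cd209a-zero cells.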

How the data were processed

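Single-cell 3' libraries (10x Genomics, v2) were made from 4 mice, 2 fed chow and 2 fed HFD. Per the submitters' processing notes, the authors used bustools 0.39.2 after pseudo-alignment by kallisto 0.46.0. They filtered cells by library size, features and mitochondrial share, dropped low-abundance genes, removed cells not annotated as monocytes or macrophages, and deposited raw UMI counts, 11820 genes by 5420 cells. The mouse was read from the cell names. Symbols came from GENCODE M21 on GRCm38 for 11819 genes, and promoter windows from RefSeq on GRCm38.p6.

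Counts were summed per mouse and class, for mice with at least 10 cells in each class. A gene entered the test if it exceeded 1 CPM in 2 or more sums and was detected in 5% or more of the cells compared. The test was the quasi-likelihood one of edgeR (version 4.0.16), with TMM scaling and Benjamini-Hochberg adjustment, at a false discovery rate of 1%. Comparisons between classes had a term for each mouse, since both classes came from the same animals. Levels in CPM are UMIs of a gene per 1000000 UMIs of the sum, without TMM. Differences are log2 fold changes with standard errors derived from the F statistic. Rule genes stayed in the fit and are given without a test. Doublets were marked with Scrublet in scanpy (version 1.11.5) per mouse and kept. Empty droplets were not analysed here. The fits were tested on simulated counts.

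Named genes are those of the marker lists, the 10 largest rises and 10 largest falls past the threshold with 1 direction in every mouse or without overlap of the diets, and the 5 largest of each sign for the interaction. The members and lists were chosen with earlier results of these data known. DESeq2 (version 1.42.0) and other alternatives are described in the closing section.

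Genes at very few UMIs, such as those listed at 0, cannot be told from genes missed at this depth. Intervals cover counting error only. Some genes of the lists are not reported here.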

Additional observations from a re-analysis of the deposited data

Results flagged for a closer look

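The diet effect differed between Cd209a-positive and Cd209a-zero cells for 12 genes by the interaction test of edgeR. The difference, in log2 units and positive where HFD minus chow was larger in Cd209a-positive cells, was 8.16 for Ifitm1, 4.21 for Ccl7, 4.07 for Igha, 2.81 for Jchain, 2.52 for Zfp263, 2.42 for Ccl12, 1.68 for Ccl4, 1.44 for Jun, 1.18 for Atf3, 1.06 for Cd83, -0.80 for Lyz2 and -4.20 for Mmp12.

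Within Cd209a-positive cells, HFD minus chow was itself negative for Igha (-1.33), Jchain (-2.23), Ccl4 (-0.75), Jun (-1.25), Atf3 (-0.92) and Cd83 (-0.71). For these genes a positive difference stands for a smaller fall than in Cd209a-zero cells. Several of the interaction values come from few cells. Of 89 Ccl7 UMIs in HFD replicate 3, 85 lay in 1 cell, and of 112 Ccl12 UMIs 107 lay in 1 cell. For Ifitm1 both chow sums of Cd209a-positive cells were at 0, which sets the size of the fitted value. Igha and Jchain, antibody genes, were at 3359.8 and 1899.8 and at 1515 and 2722 CPM in the Cd209a-zero cells of the chow mice, against 49.1 to 199.7 and 32.7 to 283 in all Cd209a-positive sums, and Jchain changed sign, to -0.61, when the classes were formed on thinned cells. Zfp263, a zinc finger gene, was at 134 and 33.3 in chow and 344 and 278 in HFD in Cd209a-positive cells, against 225, 276, 177 and 179 in Cd209a-zero cells. The part of single cells and of antibody transcripts in these differences was not tested.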

How the results depend on the processing

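Each result was recomputed with other tests, scalings, filters and rules and without each mouse. Genes called outside the rule numbered 127 against Cd209a-zero cells, 298 against C1q-high cells, 71 against Ly6c2-positive MHC II-high cells, 65 between diets and 12 in the interaction. In this order, DESeq2 called 74, 193, 31, 20 and 1. Without the replicate block for the mouse, the 3 class comparisons called 0, 109 and 4. Leaving out 1 mouse gave 73 to 126, 198 to 237, 22 to 175, 0 to 83 and 3 to 15. Thinned cells gave 194 against C1q-high cells and 2 in the interaction, where no filter gave 7. At least 2 Cd209a UMIs gave 117 against Ly6c2-positive MHC II-high cells. Removing doublets left 38 between diets. Of the alternatives added after the data were seen, C1q under 60 with at least 5 cells per mouse gave 16 between diets and 2 in the interaction, and at least 3 Cd209a UMIs with at least 5 cells per mouse gave 37 between diets. The causes were not tested. Other totals stayed within 1.5 times, but the split into higher and lower could move more. Against Cd209a-zero cells it was 45 and 82 in the main fit and 22 and 75 in thinned cells. It was 31 and 144 with no filter. With at least 5 cells per mouse it was 26 and 85 with C1q under 60 and 40 and 143 with at least 3 Cd209a UMIs. The fits without a filter moved the median log2 fold change over all genes against Cd209a-zero cells from -0.04 to -0.39.

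The difference in share of all cells (1.67 percentage points) was positive in every alternative, 1.13 to 2.22 without 1 mouse. Within the gate (5.65 points) it was 2.66 to 8.64 without 1 mouse, -0.275 in thinned cells, and 6.09 with C1q under 60, where the mice of the 2 diets overlapped. Jchain changed sign in thinned cells against Cd209a-zero cells (0.016), against Ly6c2-positive MHC II-high cells (0.312) and in the interaction (-0.609), as did Lyz1 in the second (0.235). Over 135 gene values and 1838 refits, 1454 kept their call, 375 lost it, 5 gained it and 4 turned.

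Contrasts between diets and their interaction could not be fitted with at least 2 Cd209a UMIs, because chow replicate 9 then held 9 cells, under the minimum of 10. No paired analysis was possible between the diets because the mice share no replicate number. Chow replicate 9 had already been left out against Ly6c2-positive MHC II-high cells.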
